A study of Mus musculus with 3 samples.

Results

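Deubiquitinating enzymes are the proteases that take ubiquitin off other proteins, and their genes were examined in RNA from 3 arrays of cells labelled as spermatids. Members were chosen by gene symbol from the platform annotation: the Usp, Uchl, Otub, Otud, Josd, Stambp and Brcc3 names plus Atxn3, Bap1 and Cyld, with the Y-linked Usp gene left out. The rule found 78 probe sets that name 1 gene only, for 75 genes of 19938 measured. Of these, 73 belong to the enzyme families. Family membership does not show that a product is active, and Usp39, for example, lacks enzyme activity. The other 2 carry a matching symbol only: Usp6nl, which encodes a GTPase-activating protein for Rab proteins, and Usp46os2, by its name a transcript from the strand opposite Usp46.

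The cells came from testes of wild type BALB/c male mice 30 days old, with no experimental treatment described and no second group. Per the labels' protocols, tubules were homogenised and filtered to single cells, and no step that sorts spermatids is described. The labels do not state whether each of the 3 replicates was a different animal, so p-values measure only the spread between these arrays, which may be technical. The arrays were GeneChip Mouse Gene 1.0 ST, and values are Robust Multichip Average (RMA) levels on the log2 scale.

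Ubiquitin is attached to proteins singly or in chains, and the kind of attachment decides whether a protein is degraded by the proteasome, sorted to the lysosome or changed in activity. Most deubiquitinating enzymes are cysteine proteases of the ubiquitin-specific protease (USP), ubiquitin C-terminal hydrolase (UCH), ovarian tumour (OTU) or Josephin (MJD) families, and the JAMM family are metalloproteases. In spermatids much cytoplasm is removed, the acrosome is built from Golgi and endosomal vesicles, and histones H2A and H2B carry ubiquitin around the time they are replaced. Several deubiquitinating enzymes are known from mouse mutants to be needed for normal sperm formation.

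With 1 group, each gene's level could be tested only against a background level. That level was 7.98, the 95th percentile of 211 vomeronasal receptor and hair keratin associated protein genes, whose median was 4.77. A gene was called above background by limma's one-sided test over all genes with Benjamini-Hochberg adjustment at 0.05, and a gene not called is not shown to be absent. Probes differ in how well they bind, so the order of members by level describes the arrays and not the amounts of RNA. Values are given for replicates 1, 2 and 3 in that sequence, and errors are SDs over the 3 arrays.

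Of the 75 members, 53 (70.7%) were above background, against 36.6% of all genes tested. The median level of the members was 8.91, and that of all genes was 7.45. Among the 1994 genes with the highest levels were 23 of the members (30.7%). All 3 arrays were above the level, without a test, for 54 members and for 37.6% of all genes. Without Usp6nl and Usp46os2 the count was 51 of 73. With the 99th percentile of the same background genes as the level, 31 members and 19.3% of all genes were called.

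**Figure D1:**
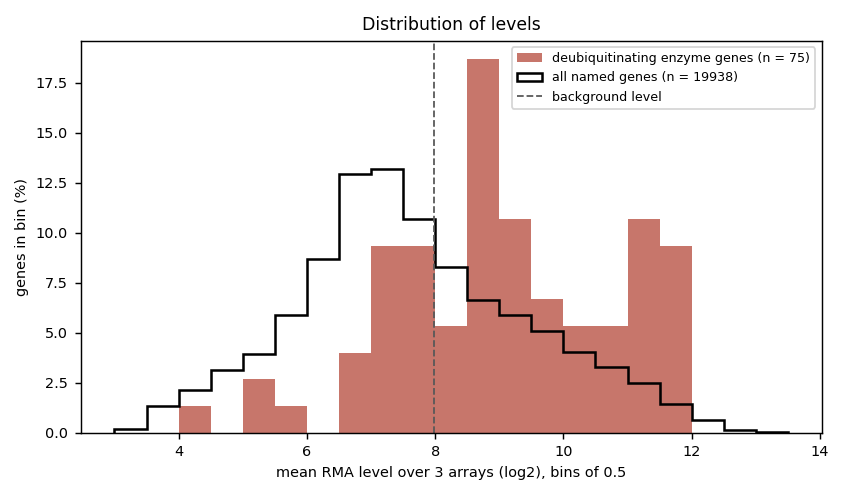
The share of genes (%) in bins of 0.5 of mean RMA level (log2) is drawn for the 75 members as filled bars and for all 19938 named genes as an outline, with the background level of 7.98 as a dashed line. The members' median of 8.91 lies to the right of that of all genes at 7.45.

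By family, 36 of 53 USP genes, 7 of 10 OTU genes and 3 of 4 UCH genes were above background. So were 2 of 3 MJD genes and all 3 JAMM genes. Over all genes the share was 36.6%, and families of 3 or 4 genes are too small to set against it. Members ranged from 4.48 for Usp17la to 11.98 for Usp47. All 3 values were exactly equal for 29 members (38.7%), against 46.0% of all genes, and an SD of 0 means such tied values and no more. For a tied gene the test only asks whether its single value lies above the level. Replicates 1 and 2 were equal for 38 members and replicates 1 and 3 for 40, these tied genes included. A small SD can therefore also come from a pair of equal arrays.

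**Figure D2:**
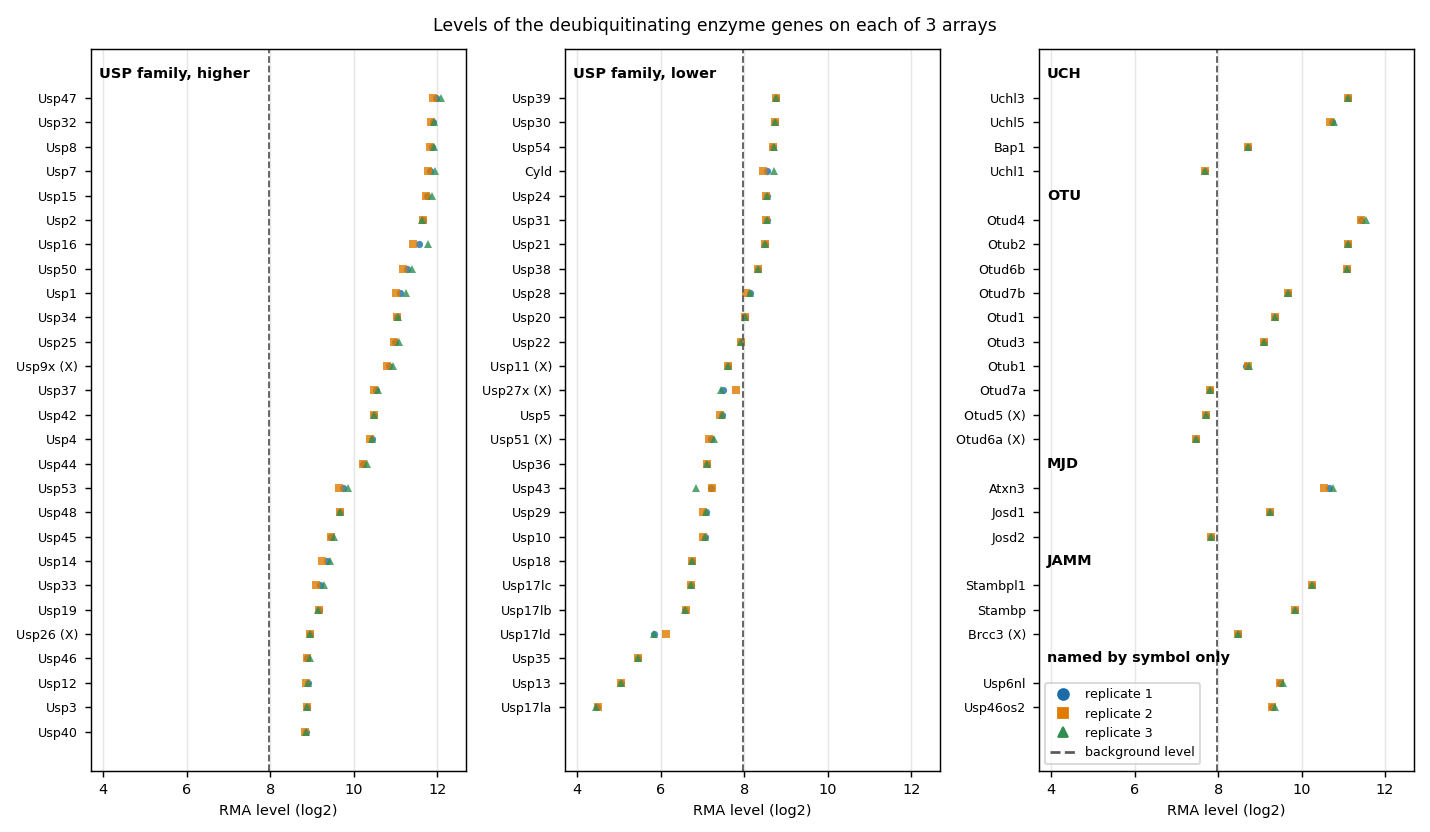
RMA level (log2) on the x axis is shown for each of the 75 members, with a circle, a square and a triangle for replicates 1, 2 and 3 and the background level of 7.98 as a dashed line; X marks genes of chromosome X. The symbols of a gene lie close together or on top of each other, and members spread from 4.48 to 11.98.

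The cell labels were checked against markers. All 10 elongating spermatid markers, all 8 round spermatid markers and all 8 spermatocyte markers were above background, with list medians of 12.28, 11.50 and 11.89. Some markers of other testis cells were above background too. They were 4 of 10 spermatogonial, 6 of 9 Sertoli cell and 6 of 6 Leydig cell genes. Of the peritubular and stromal genes 4 of 5 were above background, and of the blood and immune genes 3 of 4. Over all genes the share was 36.6%, so the spermatogonial count does not stand out, and that list's median lay under the level. In such a mixture, fewer cells of a type and less RNA per cell cannot be told apart, and which cells gave a member's RNA was not tested. The medians of these 5 lists were 7.60, 8.62, 10.21, 8.72 and 8.85, and single markers ranged from Amh of Sertoli cells at 5.91 (tied) to Cst12, also of Sertoli cells, at 11.81 ± 0.04. Pearson's r between pairs of arrays, across all probe sets, was 0.992 to 0.995.

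The 8 members with the highest levels were all of the USP family except Otud4. Usp47, whose product acts on DNA polymerase beta in base excision repair, was at 11.97, 11.89 and 12.09 (11.98 ± 0.10, n = 3). Usp32, which encodes a USP of the Golgi and endosomes, was at 11.90, 11.86 and 11.92. Usp15, whose product acts on TGF-beta receptor and SMAD proteins, was at 11.75, 11.72 and 11.86. In all 3 genes replicate 2 was lowest and replicate 3 highest, and the arrays differed by far less than the gap of over 3 log2 units to background (adjusted p = 0.000137 for Usp47, limma).

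Among USP genes grouped under endosomes and organelle membranes, all 6 were above background, against 36.6% of all genes. Usp8, whose product controls sorting of receptors on endosomes and has been tied to acrosome formation in mouse spermatids, was at 11.87, 11.82 and 11.92 (11.87 ± 0.05). Its relative Usp50, on the same chromosome 2, was at 11.27, 11.18 and 11.40 (11.28 ± 0.11). Both lay over 3 above the background level on every array, with replicate 3 highest. Usp33, one of a pair of VHL-interacting USPs, was at 9.20, 9.09 and 9.30, and the other of the pair, Usp20, was tied at 8.01. Usp20 stood only 0.03 above the background level, and that call ended when the arrays were centred on a common median (adjusted p = 0.103, limma). Usp19, the USP anchored in the endoplasmic reticulum, was at 9.16, 9.16 and 9.14, and Usp30, the mitochondrial USP that opposes parkin, was tied at 8.74.

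The JAMM enzymes of endosomal sorting were above background as well. Stambp, which encodes the AMSH protease that cuts lysine-63-linked chains at the endosome, was tied at 9.85, and its paralog Stambpl1 was tied at 10.26. Brcc3 on chromosome X encodes the third JAMM enzyme of the set, which cuts the same kind of chain in the BRCA1-A and BRISC complexes, and was tied at 8.47. None of the 3 genes differed between arrays, so their calls rest on 1 value each.

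USP enzymes that act on histones or chromatin were above background in 6 of 9 genes, against 36.6% of all genes. Usp16, a histone H2A enzyme needed for progress through mitosis, was at 11.57, 11.43 and 11.77 (11.59 ± 0.17). Its range of 0.34 was the widest among members above background, and all 3 arrays were still more than 3 above the level (adjusted p = 0.000511, limma). Usp7, whose product stabilises MDM2 and acts on p53 and DNMT1, was at 11.82, 11.77 and 11.95 (11.85 ± 0.09). Usp42, a histone H2B enzyme, was tied at 10.49, and Usp44, an H2B enzyme that also guards the spindle checkpoint, was at 10.22, 10.22 and 10.31. Usp3 and Usp21, both H2A enzymes, were nearer the level. Usp3 was at 8.89, 8.87 and 8.89 and Usp21 was tied at 8.51.

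Usp22, the USP of the SAGA module that removes ubiquitin from H2B during transcription, and its 2 paralogs that share the module's partners were not above background. Usp22, on chromosome 11, was tied at 7.93, a level minus background of -0.06. Its X-linked paralogs were Usp27x at 7.50, 7.80 and 7.44 and Usp51 at 7.21, 7.15 and 7.27. All 9 values lay under the level, and for Usp27x replicate 2 was the high array. With olfactory receptor genes as background, a level at which 55.0% of all genes were called, Usp22 and Usp27x were called and Usp51 was not. Among other subunits of the module, Atxn7l1 (10.01 ± 0.0004) and Eny2 (9.76, tied) were above background, and Atxn7 (7.94 ± 0.06), Atxn7l3 (7.51, tied) and Atxn7l2 (6.78 ± 0.05) were not.

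The USPs that need the WD-repeat protein WDR48 were above background together with their cofactors. Usp1, whose product removes ubiquitin from FANCD2 and PCNA after DNA repair, was at 11.10, 11.01 and 11.26 (11.12 ± 0.13). Usp12 was at 8.91, 8.85 and 8.91, and Usp46 at 8.89, 8.89 and 8.95. Each gene lay above the level on all 3 arrays (adjusted p = 0.00037, 0.000273 and 0.000336 for Usp1, Usp12 and Usp46, limma). Wdr48 itself was at 11.78, 11.78 and 11.83, and the other cofactor genes were Wdr20 at 8.22 ± 0.02 and Dmwd at 8.57 ± 0.0007. All 3 cofactor genes passed the test. The antisense transcript Usp46os2 was at 9.28, 9.28 and 9.36.

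Enzymes of the proteasome and of free ubiquitin chains were split. Usp14, which encodes the USP bound to the proteasome and is mutated in the ataxia mouse, was at 9.37, 9.23 and 9.44 (9.35 ± 0.10) and above background (adjusted p = 0.00138, limma). Uchl5, the UCH of the proteasome and the INO80 remodeller, was at 10.72, 10.69 and 10.78 and also above it. Usp5, whose product takes apart unanchored chains, was at 7.47, 7.43 and 7.47, and its paralog Usp13 was at 5.06, 5.06 and 5.05. Neither was above background, and Usp13 was near the background genes' median of 4.77. All 4 measured proteasome genes of the list were above background, among them Psmd14, the JAMM enzyme of the lid, at 10.01 ± 0.16.

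In the UCH family, Uchl3 was tied at 11.12 and above background. Uchl3 cuts ubiquitin and NEDD8 from small adducts. Uchl1, a well known marker of neurons that in testis is used to mark spermatogonia and Sertoli cells, was tied at 7.70 and was not above background. With the olfactory receptor background Uchl1 was called, 0.51 above that level. Bap1, the tumour suppressor that removes ubiquitin from histone H2A, was tied at 8.71 and above background. Of 8 measured partners of BAP1, 6 were above background, with Asxl1 highest at 9.77 (tied), while Hcfc1 at 8.18 ± 0.10 (adjusted p = 0.0719, limma) and Kdm1b at 7.66 (tied) were not called.

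In the OTU family, 7 of 10 genes were above background, against 36.6% of all genes. Otud4, whose product scaffolds enzymes of DNA alkylation repair, was at 11.43, 11.41 and 11.53 (11.46 ± 0.06). Otub2 was at 11.11, 11.10 and 11.11, and Otub1, whose product blocks the ubiquitin-conjugating enzyme UBC13, was at 8.66, 8.72 and 8.75. Both Otub genes were above background on every array. Otud6b was tied at 11.08, while its X-linked paralog Otud6a was tied at 7.47 and not called. Otud7b, the Cezanne gene whose product prefers lysine-11-linked chains, was tied at 9.67, while its paralog Otud7a was tied at 7.80 and not called. Otud1 was tied at 9.37 and Otud3 at 9.09. The third OTU gene not above background was the X-linked Otud5, a regulator of interferon production, tied at 7.71. Level minus background was -0.18 for Otud7a, -0.27 for Otud5 and -0.51 for Otud6a, and all 3 were called with the olfactory receptor background.

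Josephin enzymes are named after ataxin-3. Atxn3, the gene whose expanded repeat causes Machado-Joseph disease in people, was at 10.66, 10.53 and 10.76 (10.65 ± 0.11; adjusted p = 0.000423, limma). Josd1 was tied at 9.23 and above background, and Josd2 was tied at 7.83, a level minus background of -0.15, and not called. The values of Josd1 and Josd2 did not differ between arrays.

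Members known from testis or male fertility were mixed. Usp2, whose loss in mice leaves males subfertile, was at 11.65, 11.65 and 11.64 (11.65 ± 0.0017), on all arrays over 3 above the level. Cyld, which cuts lysine-63 and linear chains and is needed for male fertility in mice, was at 8.54, 8.46 and 8.70 (8.57 ± 0.12; adjusted p = 0.0121, limma). All 3 arrays were above the level for Cyld, but its call was lost when any 1 replicate was left out (adjusted p from 0.0613 to 0.111, limma). Adding probe sets of several genes also ended it (adjusted p = 0.130, limma). Usp26, an X-linked gene known for testis expression, was tied at 8.95 and above background. Its autosomal relatives were Usp37, a cell cycle enzyme of cyclin A, at 10.54, 10.48 and 10.59, and Usp29, a gene expressed from the paternal copy beside Peg3, at 7.09, 7.02 and 7.09. Usp37 was above background and Usp29 was not.

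The Usp17l genes are a rodent cluster on chromosome 7 whose first known members, Dub1 and Dub2, were found as cytokine-induced genes of blood cells. None of the 4 measured genes was called by limma, and every value on every array lay under the level, so no threshold on the one-sided p would call them. Usp17lc was tied at 6.73, Usp17lb was at 6.58, 6.61 and 6.58, Usp17ld at 5.84, 6.13 and 5.85, and Usp17la at 4.47, 4.51 and 4.45. The lowest, Usp17la, lay under the background genes' median. The copies are near-identical and can share probes, so their levels are uncertain.

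Signalling and DNA damage enzymes were split. Usp4, a paralog of Usp15, was at 10.45, 10.40 and 10.45 and above background, while their X-linked paralog Usp11, an enzyme of BRCA2-dependent repair, was tied at 7.61 and not called. Usp25 was at 10.98, 10.96 and 11.07. Its paralog Usp28, known for stabilising MYC, was at 8.14, 8.05 and 8.14 and missed the threshold narrowly (adjusted p = 0.0501, limma), although all 3 arrays were above the level. Usp28 was called in 6 of the 10 alternatives, among them without replicate 2, its lowest array. The values left there were both 8.14, so that call rests on a tie. Without replicate 1 or replicate 3 Usp28 was not called (adjusted p = 0.239 and 0.301, limma). Usp9x, the X-linked homologue of the fly gene fat facets, was at 10.84, 10.80 and 10.95 (10.86 ± 0.08; adjusted p = 0.000169, limma). Usp48 was tied at 9.67 and Usp45, an enzyme of the ERCC1 nuclease, was at 9.45, 9.45 and 9.52. Not above background were Usp36, a nucleolar USP, tied at 7.12, Usp10, a partner of the stress granule protein G3BP, at 7.04 ± 0.02, and Usp18, which removes the interferon-induced modifier ISG15, tied at 6.75.

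The remaining USP genes were above background in 9 of 11 cases, against 36.6% of all genes. Besides Usp32 they included Usp34, a regulator of axin in Wnt signalling, at 11.03, 11.03 and 11.06, and Usp53 at 9.75, 9.66 and 9.85. Usp39, a spliceosome protein, was tied at 8.76. Usp40 was at 8.85 ± 0.01 and Usp38 was tied at 8.33. Usp43 was at 7.20, 7.22 and 6.85, with replicate 3 the low array and the widest range of all members, 0.37. Usp35 was tied at 5.45, and neither Usp43 nor Usp35 was above background. Usp6nl, the Rab regulator, was at 9.49, 9.48 and 9.55.

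Usp24, Usp31 and Usp54 each had 2 probe sets, and for Usp24 these gave opposite answers. Of the Usp24 probe sets, 1 was at 10.33 on every array and the other at 6.76, 6.72 and 6.76, on either side of the background level. The gene's level of 8.54 ± 0.01 is the midpoint of the pair and stands for neither. For Usp54 the probe sets were at 9.27 ± 0.01 and 8.14 (tied), and for Usp31 at 8.78 ± 0.02 and 8.30 (tied). All 4 of these means were above 7.98.

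By chromosome, 3 of 8 X-linked members were above background (Usp9x, Usp26 and Brcc3) and 5 were not (Otud5, Usp11, Usp27x, Otud6a and Usp51). These are 37.5% of the X-linked members, against 27.6% of all X-linked genes on the array. Of 66 members with a known autosome 49 were above background, against 37.0% of autosomal genes. Among the X-linked members not called, level minus background ran from -0.27 for Otud5 to -0.77 for Usp51. The difference between X-linked and autosomal members was not tested. Chromosome 7 held 10 members, the near-identical Usp17l genes among them, and Usp47 and Usp31 were above background. The share of all chromosome 7 genes above background was not computed, so nothing is read from this count.

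Values differed between arrays for 46 members. Replicate 3 was the highest array for 27 of them (58.7%) and replicate 2 the lowest for 31 (67.4%), against 33.9% and 32.0% of all 10765 genes without full ties. The lean differed by level. Among the 35 of these above background, replicate 3 was highest for 26 (74.3%) and replicate 2 lowest for 26. Among all 4451 such genes above background, replicate 3 was highest in 62.0% and replicate 2 lowest in 58.7%. Members not above background were mixed, with replicate 2 highest for 5 of 11, against 60.4% of all such genes. Replicate 2 was also lowest for 5 of these 11, against 13.2% of all such genes. The mean level of the spermatocyte markers was 11.73, 11.66 and 11.82, that of the elongating spermatid markers 12.08, 12.05 and 12.11, and that of the Leydig cell markers 10.29, 10.15 and 10.25. Replicate 2 had the lowest mean in 7 of the 8 marker lists and the highest in the spermatogonial list, at 7.634, 7.644 and 7.635, and the part of cell makeup in the members' spread was not tested.

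**Figure D3:**
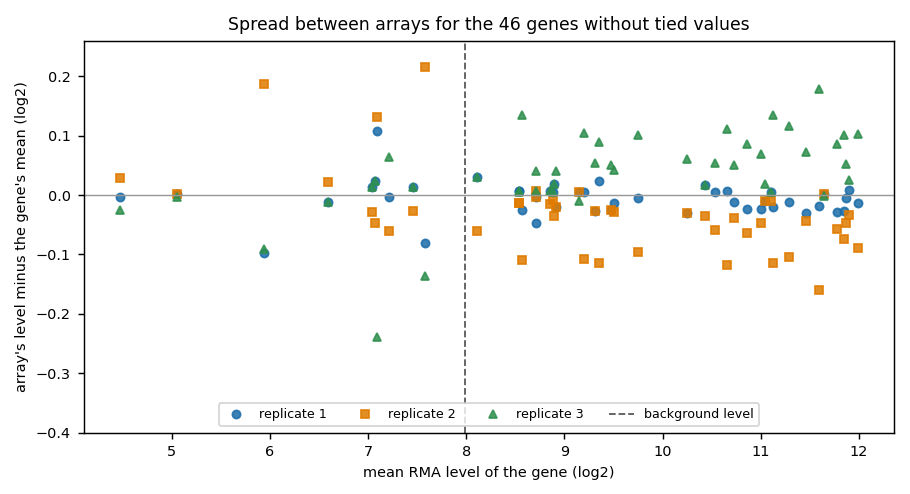
Each array's RMA level minus the gene's mean over 3 arrays (log2) is plotted against that mean for the 46 members without full ties, with circles, squares and triangles for replicates 1, 2 and 3 and the background level as a dashed line. Above 7.98 the triangles lie mostly above 0 and the squares below it, and no range exceeds 0.37.

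The pathway around these enzymes was measured through 51 listed genes, of which 45 had a probe set naming 1 gene and 32 were above background. Over all genes 36.6% were, a share to set beside the count for each complex. For the SAGA module, with 2 of 5, the count was near that share. Besides the complexes described above, 4 of 6 genes of the BRCC3 complexes were above background. These were Abraxas2, the scaffold of the cytoplasmic BRISC complex, at 10.63 ± 0.05, the shared subunit genes Babam2 at 9.73 (tied) and Babam1 at 9.38 ± 0.06, and Uimc1, the ubiquitin-binding subunit of BRCA1-A, at 8.66 ± 0.10. Abraxas1, the scaffold of the nuclear BRCA1-A complex, was tied at 7.64, and Shmt2 was at 6.58 ± 0.10, both not above background. Of 19 further enzymes and related JAMM or MPN proteins 13 were above background. They were led by the translation factor gene Eif3h at 11.56 ± 0.11, the OTU gene Zranb1 at 11.30 (tied), and Cops5, the enzyme of the COP9 signalosome, at 11.17 ± 0.13. Tnfaip3, the NF-kB inhibitor A20, was tied and not above background.

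**Figure D4:**
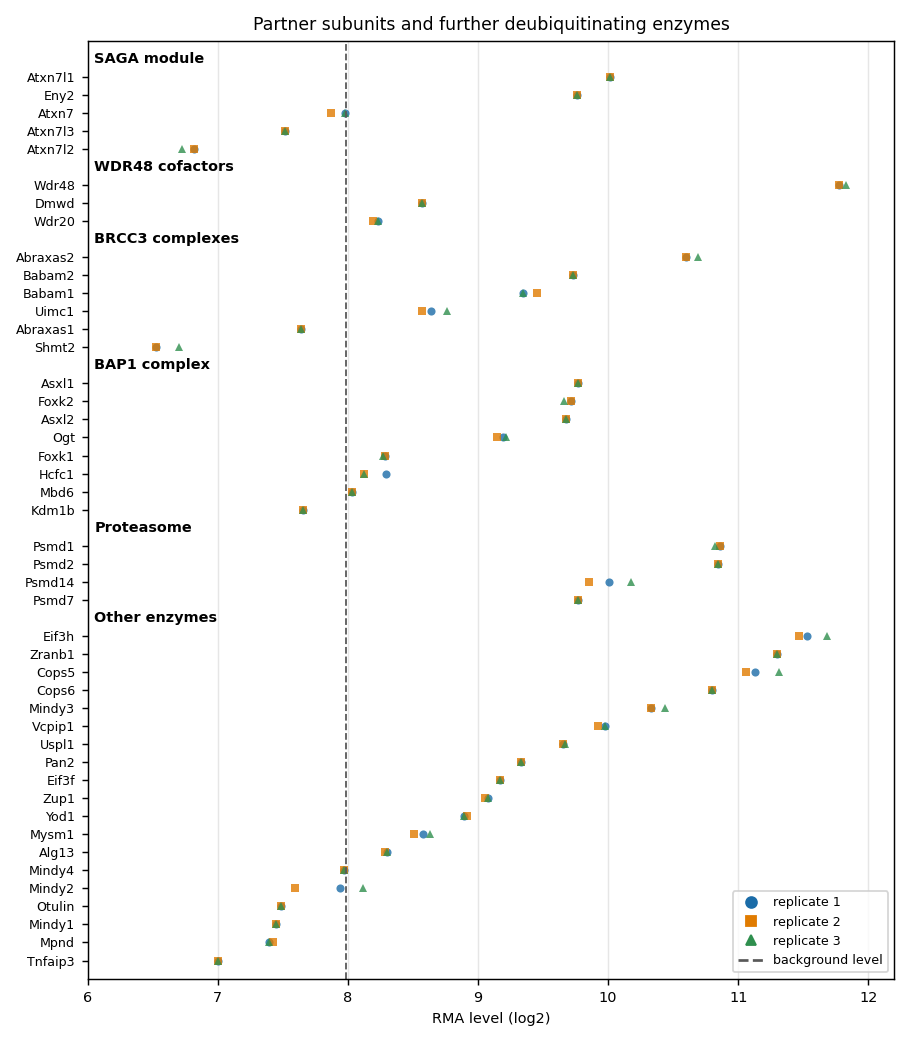
RMA levels (log2) on each of 3 arrays are shown for 45 genes of partner complexes and further enzymes, grouped by complex, with the background level of 7.98 as a dashed line. Wdr48 lies highest of these at 11.79, while Atxn7, Atxn7l3 and Atxn7l2 of the SAGA module lie left of the line.

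The sequence before the transcription start was compared for the 60 members found in the RefSeq promoter table (GRCm38.p6). The number of CpG dinucleotides in the 250 bases before the start had a median of 23.5 in 42 members above background and of 11.5 in 18 members not above it. These 18 include the near-identical Usp17l genes, each with at most 1 CpG, counted here as separate genes. In all genes with a window the medians were 16 in 5975 genes above background and 7 in 9588 genes not above it. Where the table lists several starts for a gene, the number is their mean, and none of this was tested. The windows below are shown because they span that range: Usp7 has the most CpGs of any member, Usp17ld none, and Usp50 and Usp26 lie above background with few. CpGs are in capitals, and each sequence runs along the gene's own strand.
Usp7, chr16:8738343-8738592, minus strand: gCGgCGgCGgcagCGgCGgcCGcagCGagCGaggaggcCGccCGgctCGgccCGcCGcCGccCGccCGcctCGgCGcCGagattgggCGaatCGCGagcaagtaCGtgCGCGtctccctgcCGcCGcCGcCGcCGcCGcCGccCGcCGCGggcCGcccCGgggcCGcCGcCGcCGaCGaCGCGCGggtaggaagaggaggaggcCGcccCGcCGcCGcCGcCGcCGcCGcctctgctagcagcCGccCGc
Usp50, chr2:126783461-126783710, minus strand: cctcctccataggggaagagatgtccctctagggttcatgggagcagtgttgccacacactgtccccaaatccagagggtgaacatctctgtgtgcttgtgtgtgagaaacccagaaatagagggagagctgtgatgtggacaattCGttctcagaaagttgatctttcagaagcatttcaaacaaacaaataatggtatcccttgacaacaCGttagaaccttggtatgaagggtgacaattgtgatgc
Usp26, chrX:51801234-51801483, minus strand: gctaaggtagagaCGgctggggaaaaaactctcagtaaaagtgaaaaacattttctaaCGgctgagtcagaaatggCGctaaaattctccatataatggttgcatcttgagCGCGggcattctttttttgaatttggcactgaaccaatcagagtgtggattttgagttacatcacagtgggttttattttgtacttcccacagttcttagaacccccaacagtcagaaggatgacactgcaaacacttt
Usp17ld, chr7:103252506-103252755, minus strand: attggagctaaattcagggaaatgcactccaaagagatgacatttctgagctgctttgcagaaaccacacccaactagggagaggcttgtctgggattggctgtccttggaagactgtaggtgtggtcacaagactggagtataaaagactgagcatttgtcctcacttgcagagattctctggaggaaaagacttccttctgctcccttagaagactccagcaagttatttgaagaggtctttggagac

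The Usp7 window holds 55 CpGs in 250 bases and the gene was at 11.85 ± 0.09. The start that the table lists for Usp7 lies inside the gene's annotated span. The Usp50 window holds only 2 CpGs, although Usp50 was at 11.28 ± 0.11, and the Usp26 window holds 5, with Usp26 tied at 8.95. The Usp17ld window holds none, and each window of the other 3 Usp17l genes holds 1. Under 5 CpGs were found in 6 members, namely the Usp17l genes, Usp50 and Usp54, and in 28.5% of all genes with a window. A high CpG number did not go with a call in every case: Usp13 with 28 and Usp35 with 25 were among the lowest members.

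**Figure D5:**
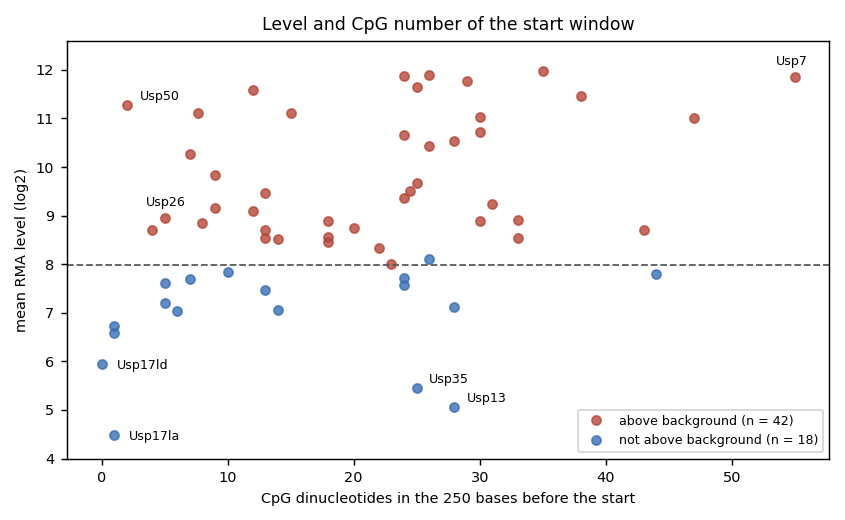
The mean RMA level (log2) of 60 members is plotted against the number of CpG dinucleotides in the 250 bases before the start, in red for 42 members above background and in blue for 18 not above it, with the background level as a dashed line. Usp50 lies high at 2 CpGs, Usp7 far right at 55, and Usp13 and Usp35 low despite 28 and 25.

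The cAMP response element TGACGTCA, the site bound by CREM and CREB proteins in many spermatid genes, was searched on both strands of the same windows; it reads the same on each. It occurred in 1 member, Otud7a, which was not above background, and in 2.34% of all genes with a window. Its shorter form is TGACG, or CGTCA on the other strand, which the full element contains. The shorter form occurred in 20 of 60 members and in 24.1% of all genes with a window. Above background it occurred in 13 of 42 members (31.0%) and in 31.8% of all such genes. Among those not above background it occurred in 7 of 18 members (38.9%) and in 19.3% of all such genes. These shares were not tested. Such matches are letters in a window and show no binding.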

How the data were processed

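The authors deposited log2 levels for 35556 probe sets on each of 3 arrays. RMA was run in Affymetrix Power Tools with mm9 annotation, per the series' design text, with no software version stated there. Columns were not centred. No scanner files were used here.

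Platform annotation named 1 gene for 21789 probe sets, several for 1621 and none for 12146. Symbols and chromosomes were updated by Entrez identifier to GRCm38.p6 for 21698 of the 21789. Probe sets naming the same single gene were summarised by their median, which gave 19938 genes.

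Each gene was tested with limma 3.58.1 in R 4.3.3 (intercept model, empirical Bayes, one-sided against the background level, adjusted over all genes). The script was tested on simulated data without tied values, so that check does not cover tied genes. The number of arrays limits the precision.

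Every member is named. Values per array follow a rule that covers the highest and lowest members, the most variable, the small families, X-linked and named testis or histone genes, and those near the level. The members and lists were chosen with earlier results of these data known. Alternatives were other background levels, no test, other probe set summaries, a variance trend, centred arrays and each replicate left out.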

Additional observations from a re-analysis of the deposited data

How the results depend on the processing

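Of 75 members, 31 were called under all 11 settings and 12 under none. The count of 53 was 31 at the 99th percentile level and 63 with the olfactory receptor background, while the share of all genes called was 19.3% and 55.0%. Under the other alternatives it ranged from 50 to 54, and with each replicate left out from 52 to 53. At the 99th percentile level, members that fell below it were Usp20 at -1.15, Usp38 at -0.83, Brcc3 at -0.70, Usp21 at -0.65, Usp24 and Usp31 at -0.62, Cyld at -0.59, Usp54 and Bap1 at -0.46, Otub1 at -0.45, Usp30 at -0.42, Usp39 at -0.40, Usp40 at -0.31, Usp3 at -0.28, Usp12 at -0.27, Usp46 at -0.25, Usp26 at -0.21, Otud3 at -0.072 and Usp19 at -0.010. Usp33 at 0.03, Usp46os2 at 0.15 and Usp14 at 0.18 stayed above that level but lost their calls (limma, adjusted p = 1, 0.0549 and 0.172). With the olfactory receptor background, members that turned to above it were Usp22 at 0.74, Josd2 at 0.65, Otud7a at 0.62, Otud5 at 0.53, Uchl1 at 0.51, Usp11 at 0.43, Usp27x at 0.40, Otud6a at 0.29 and Usp5 at 0.27. With probe sets of several genes added, the level moved to 8.37. Usp20 was then at -0.36 and Usp38 at -0.034, and Cyld at 0.20 lost its call. Uchl3 kept its call at 0.375, against 3.13 when only its own probe set was used. These values are levels minus the background level, on the log2 scale. No paired analysis was possible because there was only 1 group. Calls depend most on the level chosen, and no detection calls were used.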

Other observations

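Probe sets that name a member together with another gene were left out of the levels above. The probe set shared by Usp49, a histone H2B enzyme, and Med20 was tied at 8.87, and Usp49 had no probe set of its own. The probe set shared by Uchl3 and Uchl4 was at 6.37, 6.37 and 6.38, against 11.12 for the probe set of Uchl3 alone. The probe set shared by Josd1 and Gm10651 was at 8.92, 8.82 and 8.94, and that of Usp17la, Usp17lc, Usp17ld and Usp17le at 7.09, 7.24 and 7.01.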
